A study of Mus musculus with 8 samples.

Results

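The genes described here are 6 myeloid C-type lectin receptors, Clec4e, Clec4d, Clec4n, Clec5a, Clec7a and Clec12a, taken by name from the 30284 genes with a value. Their expression was the sum of TPM (a length-corrected abundance that has the same total in every library) over all Ensembl transcripts of the gene. RNA sequencing of total RNA covered macrophages of 7-week-old male C57BL6 mice that had been stimulated in the peritoneum. There were 8 libraries, 2 in each of 4 groups: LPS+IFNb (interferon beta for 4 h and then lipopolysaccharide for 4 h), LPS alone for 4 h, IFNb alone for 4 h, and saline for 4 h. LPS, a component of bacterial outer membranes, acts through TLR4, and IFNb is a type I interferon. The series title names the question: how IFNb priming bears on the proinflammatory cytokine response to LPS. Since LPS+IFNb libraries date from 8 h after IFNb and no group analysed here had saline as its later treatment after IFNb, priming and time since IFNb cannot be told apart. The labels name no genetic change, no dose, and no sort or adhesion step for the macrophages, which they also call peripheral. Nor do they tie the 2 libraries of any group to different animals, and p-values therefore measure only how these libraries vary, which may be technical variation.

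C-type lectin receptors are surface proteins with which macrophages and other myeloid cells recognise fungal, mycobacterial and damaged-cell ligands. Mincle (Clec4e), MCL (Clec4d) and Dectin-2 (Clec4n) signal through the adaptor FcR gamma (Fcer1g), and MDL-1 (Clec5a) through DAP12 (Tyrobp), while Dectin-1 (Clec7a), the beta-glucan receptor, carries its own tyrosine motif. All of these recruit the kinase Syk, from which PKC-delta, CARD9, BCL10 and MALT1 lead to NF-kB. Clec12a (MICL) carries an inhibitory motif that recruits the phosphatases encoded by Ptpn6 and Ptpn11. Mincle is a textbook example of a receptor that macrophages make at low level until they meet a stimulus such as LPS.

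All 6 genes lie on chromosome 6 (mm10). Clec4n (ENSMUSG00000023349, chr6:123229843-123247021, plus strand), Clec4d (ENSMUSG00000030144, chr6:123262111-123275265, plus strand) and Clec4e (ENSMUSG00000030142, chr6:123281789-123289870, minus strand) are neighbours within 60.0 kb. Clec12a (ENSMUSG00000053063, chr6:129342691-129365303, plus strand) and Clec7a (ENSMUSG00000079293, chr6:129461591-129472779, minus strand) lie within 130 kb of each other, 6.05 Mb away. Clec5a (ENSMUSG00000029915, chr6:40574894-40585821, minus strand) stands alone, 82.6 Mb from the nearest of the others.

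Clec4e, Clec4d and Clec5a rose with LPS against saline, as described below, and their promoters are shown for that reason. The RefSeq table for GRCm38.p6 matched 5 of the 6 members. Each window runs from 250 bases before to 50 bases after a start listed in that table, 5′ to 3′ in the gene's direction. Capitals mark matches, on either strand, to letters of 6 motifs. These were TTNNGCAA for C/EBP, a family of factors that act in myeloid cells, GAAANNGAA for the interferon-stimulated response element (ISRE) and GGGNNTTTC for NF-kB. The shorter ones were GAGGAAG for the myeloid factor PU.1, and for the inducible factor AP-1 the letters TGANTCA, while the core promoter box was searched as TATAAA. The Clec4e window is chr6:123289822-123290121 (minus strand), the Clec4d window chr6:123261857-123262156 (plus strand) and the Clec5a window chr6:40585756-40586055 (minus strand).
Clec4e: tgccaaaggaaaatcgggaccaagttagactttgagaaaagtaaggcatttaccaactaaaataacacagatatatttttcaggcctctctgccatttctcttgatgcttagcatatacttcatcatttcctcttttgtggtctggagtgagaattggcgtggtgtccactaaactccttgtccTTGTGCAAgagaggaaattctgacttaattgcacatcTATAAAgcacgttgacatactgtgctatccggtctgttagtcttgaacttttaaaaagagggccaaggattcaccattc
Clec4d: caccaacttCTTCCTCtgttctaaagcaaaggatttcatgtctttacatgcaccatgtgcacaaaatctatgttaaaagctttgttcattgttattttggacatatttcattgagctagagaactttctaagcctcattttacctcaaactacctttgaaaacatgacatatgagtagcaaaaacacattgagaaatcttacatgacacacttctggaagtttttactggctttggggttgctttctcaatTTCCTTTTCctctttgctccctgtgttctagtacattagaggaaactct
Clec5a: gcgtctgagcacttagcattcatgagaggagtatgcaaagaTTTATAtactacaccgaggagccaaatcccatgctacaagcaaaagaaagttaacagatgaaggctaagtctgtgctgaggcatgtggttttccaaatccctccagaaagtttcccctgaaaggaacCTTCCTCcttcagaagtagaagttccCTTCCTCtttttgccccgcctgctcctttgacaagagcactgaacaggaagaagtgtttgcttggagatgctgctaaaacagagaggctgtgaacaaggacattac
The capitals in Clec4e are a C/EBP match that begins at position -66 from the start and a TATA match at -29. In Clec4d they are a PU.1 match at -241 and an ISRE match at 2, both on the opposite strand. In Clec5a they are a TATA match at -209 and PU.1 matches at -82 and -56, all on the opposite strand. The Clec12a window held AP-1, C/EBP and PU.1 matches, and 1 of the 2 windows listed for Clec7a held a TATA match at 43. That Clec12a window, chr6:129349994-129350293, lies inside the gene span given above, which begins at 129342691, and not at its start. No member window held the NF-kB letters. Of 32817 windows of this length, 10.8% held the C/EBP letters, 13.6% PU.1, 8.55% ISRE, 4.36% NF-kB, 7.81% AP-1 and 13.6% TATA. The C/EBP letters in the Clec12a window matched on both strands at the same position, and no other matches in these windows overlapped. These matches describe letters in the window and not bound sites.

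Macrophage markers were high in every library: Lyz2 (lysozyme) lay between 10160 and 17557 TPM and Cd68 between 2694 and 3367 TPM. The 10 markers of resident large peritoneal macrophages summed to 758 to 813 TPM in LPS+IFNb, 1132 to 1154 TPM in LPS, 799 to 801 TPM in IFNb and 1171 to 1286 TPM in saline libraries. Most of that was Cd9, at 713 to 1237 TPM, followed by Prg4 at 10.03 to 23.8 TPM and Icam2 at 7.90 to 19.6 TPM. Rarb stayed under 1 TPM in every library, and Gata6, the factor that defines these cells, lay between 0.862 and 2.11 TPM and Timd4 between 0.427 and 3.37 TPM (both named after their values were seen). Of 16 neutrophil markers, 6 (Ly6g, Mpo, Elane, Camp, Ltf and Ngp) were under 1 TPM in every library. The highest on average were Csf3r at 65.7 to 125 TPM, Lcn2 at 1.28 to 203 TPM and S100a8 at 36.7 to 115 TPM. Lcn2 had 203 and 151 TPM in LPS+IFNb libraries and 87.3 and 170 TPM in LPS libraries, against 2.09 and 2.51 TPM in saline libraries. The list summed to 422 to 543 TPM in LPS+IFNb, 358 to 554 TPM in LPS, 277 to 350.1 TPM in IFNb and 312 to 405 TPM in saline libraries. The 11 monocyte and small peritoneal macrophage markers summed to 1020 to 1167, 840 to 1286, 1319 to 1497 and 516 to 981 TPM in the same 4 groups. In LPS against saline 2 of 10 tested neutrophil markers were higher and 1 lower, and 4 of 11 monocyte markers higher and 1 lower, where 54.1% of all tested genes changed. In LPS+IFNb against LPS 1 neutrophil marker was higher and 1 lower, and 6 of the 11 monocyte markers were higher and none lower, where 10.8% of all tested genes were higher and 34.8% changed. For these 2 lists the sums in LPS+IFNb and LPS libraries overlapped, as did those in LPS and saline libraries. Both lists had higher sums in LPS+IFNb libraries than in saline libraries, without overlap. In IFNb libraries the monocyte sums lay above those in saline libraries, while the neutrophil sums overlapped them. The sum of the large peritoneal macrophage markers, mostly Cd9, was lower in both LPS+IFNb libraries than in both LPS libraries. Gene by gene the list was split: of 9 tested, 2 were higher (Selp and Garnl3) and 2 lower (Cd9 and Naip1). Of all tested genes 10.8% were higher and 24.1% lower. After the median-ratio scaling described below, 3 of the 9 were higher and 1 lower, and Cd9 did not pass. The part of the 3 lists in the results below was not tested. In bulk RNA, fewer cells of a type and less RNA per cell cannot be told apart. Read depth cannot be read from TPM.

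Together the 6 receptors took 1200 ± 11.8 TPM in LPS+IFNb, 2224 ± 135 TPM in LPS, 715 ± 17.8 TPM in IFNb and 1179 ± 95.04 TPM in saline libraries (SD, n = 2 each). The LPS+IFNb and saline sums overlapped, but different receptors made them up. Clec4e supplied 36.7% and 38.6% of the sum in LPS+IFNb libraries, against 1.81% and 2.98% in saline libraries. Clec7a supplied 20.3% and 21.6% in LPS+IFNb libraries, against 42.2% and 36.8% in saline libraries. Clec4d stayed between 22.4% and 37.6% of the sum in all 8 libraries.

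**Figure D1:**
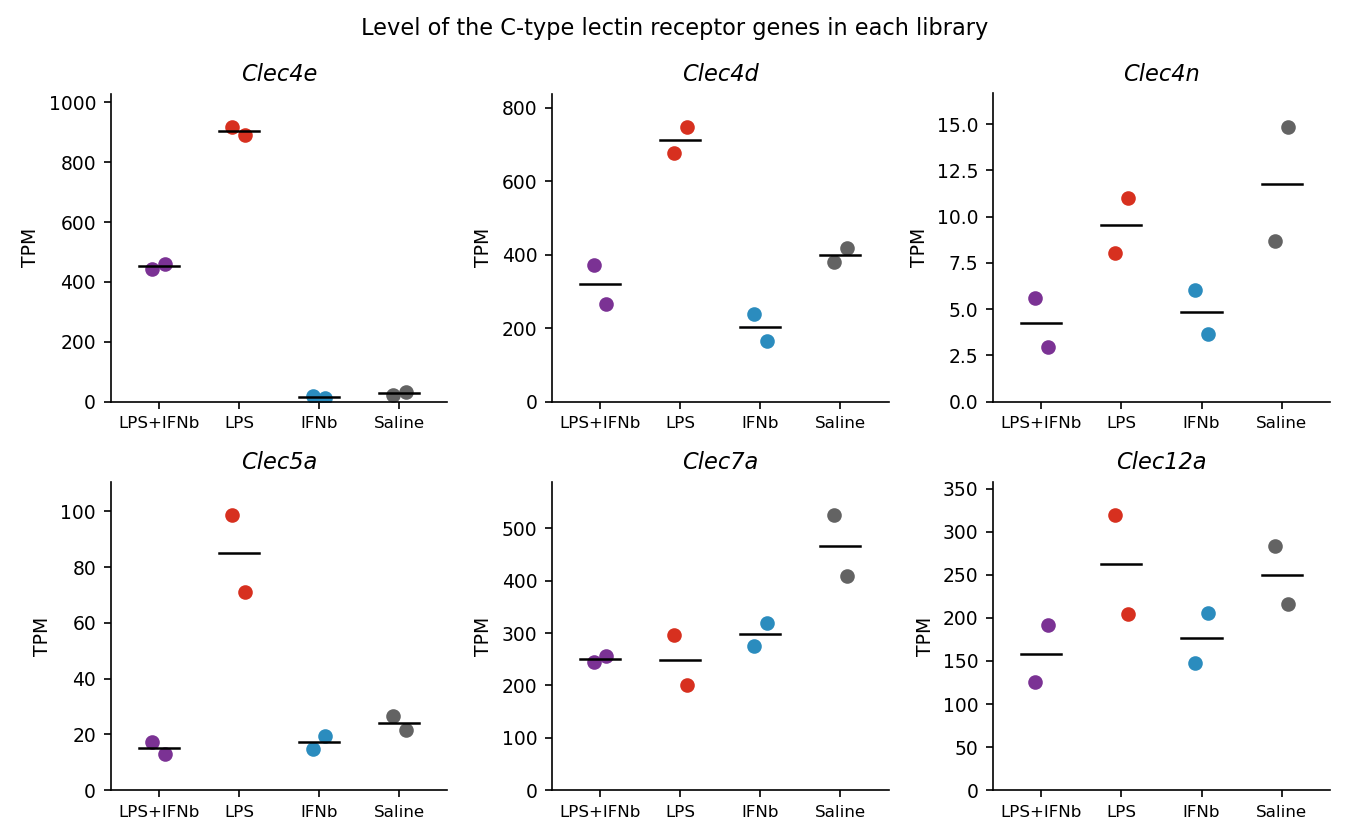
TPM of the 6 receptors, with 1 panel and its own linear axis from 0 per gene, a point for each library and a line for the group mean, for LPS+IFNb, LPS, IFNb and saline. The 2 LPS libraries and the 2 LPS+IFNb libraries stand above the other 4 for Clec4e, the LPS libraries alone stand above for Clec5a, and the LPS and saline libraries overlap for Clec12a.

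Clec4e (Mincle), which binds mycobacterial cord factor and a protein of dying cells, had 444 and 460.4 TPM in LPS+IFNb libraries, 919 and 892 TPM in LPS libraries, 19.2 and 13.7 TPM in IFNb libraries, and 22.6 and 33.2 TPM in saline libraries. The groups did not overlap, and the order was LPS, LPS+IFNb, saline, IFNb. Differences were tested with limma on log2(TPM + 1) over all 13009 genes that reached 1 TPM in at least 2 libraries, with Benjamini-Hochberg adjustment and a threshold of 0.05. Clec4e rose with LPS against saline by a log2 of 4.997 ± 0.21 (SE; adjusted p = 9.02e-06), a 31.9-fold change of TPM + 1, which ranked 55 from the top of the 13009 genes. It also rose with LPS+IFNb against saline, by 4.00 ± 0.21 (adjusted p = 1.58e-05), and with LPS+IFNb against IFNb, by 4.72 ± 0.21 (adjusted p = 3.14e-05). Clec4e was thus raised after priming too, at a lower level than after LPS alone: the log2 difference of LPS+IFNb from LPS was -1.001 ± 0.21 (limma, adjusted p = 0.0117). Leaving out either LPS library or either LPS+IFNb library ended that call, at log2 differences of -0.97 to -1.03 and adjusted p from 0.0516 to 0.0613. With IFNb alone Clec4e was lower than in saline, with a log2 difference of -0.72 ± 0.21 (adjusted p = 0.0255), a call that was lost without IFNb replicate 2 (-0.49, adjusted p = 0.128) and without saline replicate 2 (-0.46, adjusted p = 0.101).

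TPM depends on what else fills a library, and here the median log2 difference of all tested genes lay away from 0. Against saline it was -0.38 for LPS, -0.37 for IFNb and -0.62 for LPS+IFNb, and it was -0.22 for LPS+IFNb against LPS. Median-ratio scaling, which sets each library's typical gene to the same level, brought these medians to 0.01, -0.03, 0.00 and -0.02. Under it Clec4e differed by 5.44 in LPS against saline and by -0.74 in LPS+IFNb against LPS (adjusted p = 0.0190), and by -0.34 in IFNb against saline (adjusted p = 0.170). The scaled value is given below wherever it ends a call or turns a direction.

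Clec4d (MCL), a partner of Mincle in a shared receptor complex, had 371 and 267 TPM in LPS+IFNb libraries, 677 and 748 TPM in LPS libraries, 239 and 166 TPM in IFNb libraries, and 379 and 418 TPM in saline libraries. It was abundant without stimulation, the 4 groups did not overlap, and the order was LPS, saline, LPS+IFNb, IFNb. Clec4d rose with LPS against saline by 0.84 ± 0.21 (limma, adjusted p = 0.0156). That call was lost without saline replicate 1 (0.77, adjusted p = 0.0649) or LPS replicate 2 (0.77, adjusted p = 0.0758). It fell with IFNb against saline, by 0.99 on the log2 scale (adjusted p = 0.00862), where median-ratio scaling gave -0.60 and adjusted p = 0.0662. After priming it was lower than after LPS alone, with a log2 difference of -1.18 ± 0.21 (adjusted p = 0.00719), and did not pass against saline (-0.34, 95% interval -0.85 to 0.17, adjusted p = 0.197; 0.38 when scaled). Against IFNb, LPS+IFNb libraries were higher by 0.66 ± 0.21 (adjusted p = 0.0489). Leaving out any library but IFNb replicate 1 or LPS+IFNb replicate 2 ended that last call, with differences of 0.39 (adjusted p = 0.221, without IFNb replicate 2) to 0.66.

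Clec4n (Dectin-2), a receptor for fungal mannans, was the scarcest member. It had 5.62 and 2.94 TPM in LPS+IFNb libraries, 8.02 and 11.03 TPM in LPS libraries, 6.02 and 3.67 TPM in IFNb libraries, and 8.66 and 14.9 TPM in saline libraries. The saline and LPS libraries overlapped, and both stood above the libraries that had received IFNb. Clec4n fell with LPS+IFNb against saline, by 1.28 on the log2 scale (SE 0.37, limma, adjusted p = 0.0182), and with IFNb against saline, by 1.11 (SE 0.37, adjusted p = 0.0409). LPS+IFNb against LPS did not pass, at -1.03 ± 0.37 (adjusted p = 0.0704), nor did LPS against saline (-0.25, 95% interval -1.12 to 0.63, adjusted p = 0.595; 0.17 when scaled). Median-ratio scaling ended both calls against saline (-0.65, adjusted p = 0.143, for LPS+IFNb and -0.75, adjusted p = 0.129, for IFNb). The first was also lost without LPS+IFNb replicate 2 (-0.90, adjusted p = 0.101) or saline replicate 2 (-0.92, adjusted p = 0.0962), and the second without IFNb replicate 1, IFNb replicate 2, LPS replicate 1, LPS replicate 2 or saline replicate 2, at -0.75 to -1.41.

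Clec5a (MDL-1), a receptor that binds dengue virus, had 17.3 and 13.02 TPM in LPS+IFNb libraries, 98.7 and 71.1 TPM in LPS libraries, 14.9 and 19.5 TPM in IFNb libraries, and 26.6 and 21.5 TPM in saline libraries. LPS alone set it apart: every LPS library was above every other library, while LPS+IFNb and IFNb libraries overlapped. It rose with LPS against saline by 1.77 ± 0.23 (limma, adjusted p = 0.00107). LPS+IFNb libraries were lower than LPS libraries by a log2 difference of -2.40 ± 0.23 (adjusted p = 0.000743), which ranked 25 from the bottom of the 13009 genes. LPS+IFNb did not pass against IFNb (-0.17, 95% interval -0.72 to 0.37, adjusted p = 0.577; 0.14 when scaled). Against saline, LPS+IFNb libraries were lower by -0.64 ± 0.23 (adjusted p = 0.0421), but median-ratio scaling turned this to 0.05 (adjusted p = 0.891). That call was also lost without LPS+IFNb replicate 2 (-0.44), saline replicate 1 (-0.49) or saline replicate 2 (-0.78). IFNb against saline did not pass (-0.46 ± 0.23, adjusted p = 0.132).

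The interaction asks whether the difference that LPS made after IFNb differed from the difference it made without IFNb. For Clec5a it was -1.94 ± 0.32 on the log2 scale (95% interval -2.71 to -1.17, limma, adjusted p = 0.0168), and Clec5a was the member that passed it. Of all 13009 genes, 7.96% passed, 4.45% in the lower direction. After median-ratio scaling 4.54% passed in the lower direction and 1.71% in the higher. Without LPS replicate 1 (-1.71, adjusted p = 0.056), IFNb replicate 2 (-1.76, adjusted p = 0.0667) or LPS+IFNb replicate 2 (-1.75, adjusted p = 0.0634) it did not pass. For Clec4e the interaction was -0.28 ± 0.29 (95% interval -0.98 to 0.42, adjusted p = 0.640), so on a log scale no difference in the LPS response was shown. For Clec4d it was -0.18 (95% interval -0.90 to 0.54, adjusted p = 0.785) and for Clec7a 0.68 (95% interval -0.01 to 1.37, adjusted p = 0.217). Clec12a (-0.21, 95% interval -1.25 to 0.82) and Clec4n (0.08, 95% interval -1.15 to 1.32) did not pass either.

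Clec7a (Dectin-1) had 245 and 257 TPM in LPS+IFNb libraries, 297 and 201 TPM in LPS libraries, 276 and 319 TPM in IFNb libraries, and 525 and 409 TPM in saline libraries. Both saline libraries stood above all 6 others, and the stimulated groups lay close together. Clec7a fell with LPS against saline by 0.92 on the log2 scale (SE 0.20, limma, adjusted p = 0.00924), with LPS+IFNb by 0.88 (SE 0.20, adjusted p = 0.00754) and with IFNb by 0.64 (SE 0.20, adjusted p = 0.0367). LPS+IFNb against LPS did not pass (0.04, 95% interval -0.45 to 0.53, adjusted p = 0.897). Median-ratio scaling ended the 3 calls against saline, at -0.46 (adjusted p = 0.194) for LPS, -0.16 (adjusted p = 0.623) for LPS+IFNb and -0.25 (adjusted p = 0.503) for IFNb. The IFNb call was also lost without either IFNb library, either LPS+IFNb library or saline replicate 1, at -0.46 to -0.75.

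Clec12a (MICL), the inhibitory member, which binds uric acid crystals, had 125 and 191 TPM in LPS+IFNb libraries, 319 and 205 TPM in LPS libraries, 147 and 205 TPM in IFNb libraries, and 284 and 216 TPM in saline libraries. The LPS+IFNb libraries stood below the LPS and saline libraries, which overlapped, but the 2 libraries of a group were far apart. A crossed block, chosen after seeing the data and described below, called all 6 members in LPS+IFNb against saline. Without a block none of the 6 pairwise differences of Clec12a passed in limma, with or without adjustment. The smallest adjusted p was 0.0888, for LPS+IFNb against saline at -0.67 ± 0.30 (95% interval -1.40 to 0.06; 0.04 when scaled). LPS against saline was 0.05 (95% interval -0.68 to 0.78, adjusted p = 0.909), and leaving out a library turned its sign, to -0.15 without saline replicate 2 and to -0.27 without LPS replicate 1.

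**Figure D2:**
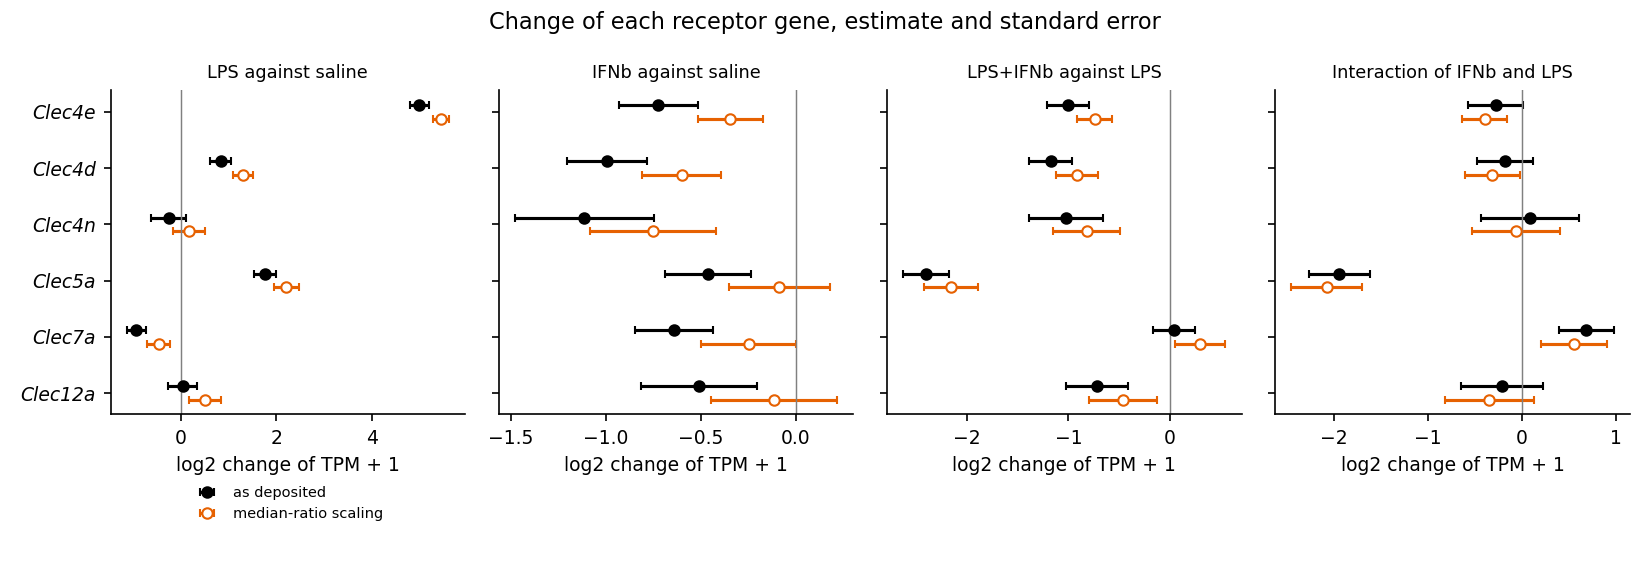
Log2 difference of TPM + 1 for each receptor with its SE as bars, in LPS against saline, IFNb against saline, LPS+IFNb against LPS and the interaction, each panel with its own axis; filled black points use the TPM as deposited and open orange points median-ratio scaling. With LPS against saline Clec4e lies furthest to the right, with LPS+IFNb against LPS Clec5a lies furthest to the left, and in IFNb against saline all scaled points lie nearer to 0 than the points as deposited.

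In LPS against saline 4 of the 6 members changed, 3 higher and 1 lower, where 54.1% of all tested genes changed, 12.8% higher and 41.3% lower. Their median log2 difference was 0.44, against -0.38 over all tested genes. After median-ratio scaling 3 members were higher and none lower, where 20.0% of tested genes were higher and 16.7% lower, and the medians were 0.90 and 0.01. In IFNb against saline 4 members fell and none rose, where 51.6% of tested genes changed and 38.6% fell. After median-ratio scaling no member passed limma's adjusted threshold there, 1 (Clec4d) was lower at an unadjusted p under 0.05, and 31.9% of tested genes changed, 17.8% higher and 14.1% lower. The members' median was -0.68 against -0.37 over all tested genes. LPS+IFNb against saline had 1 member higher and 3 lower, where 69.4% of tested genes changed, 15.2% higher and 54.1% lower. The 4 called members are near that background share, and after scaling Clec4e alone passed, where 26.6% of tested genes were higher and 24.9% lower. These comparisons share the saline libraries.

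In LPS+IFNb against LPS, the comparison that bears on priming, 3 members (Clec4d, Clec4e and Clec5a) were lower and none was higher. Of all tested genes 34.8% changed, 24.1% lower and 10.8% higher. After median-ratio scaling the same 3 members passed in the same direction, where 9.9% of tested genes were lower and 14.4% higher. The median over the 6 members was -1.01, against -0.22 over all tested genes. In LPS+IFNb against IFNb 2 members (Clec4e and Clec4d) were higher, where 8.76% of tested genes were higher and 39.3% changed. After scaling the count was again 2 higher and none lower, where 12.7% of tested genes were higher and 10.5% lower. In LPS against IFNb 3 members were higher, where 16.6% of tested genes were higher and 38.7% changed. They were Clec4e (5.72 ± 0.21, limma, adjusted p = 6.56e-06), Clec5a (2.23 ± 0.23, adjusted p = 0.000415) and Clec4d (1.83 ± 0.21, adjusted p = 0.000742).

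The summed values hide the isoforms that make them up. In Clec7a, Clec5a and Clec4e exon 3 lies within the coding sequence, has a length that is a multiple of 3 bases, and is present in some annotated isoforms and absent in others. These exons are shown because the isoform shares below turn on them, 5′ to 3′ in the gene's direction and in lower case throughout. They are 135 bases of Clec7a at chr6:129468869-129469003 (minus strand), 75 bases of Clec5a at chr6:40584356-40584430 (minus strand) and 87 bases of Clec4e at chr6:123286432-123286518 (minus strand), on mm10.
Clec7a exon 3: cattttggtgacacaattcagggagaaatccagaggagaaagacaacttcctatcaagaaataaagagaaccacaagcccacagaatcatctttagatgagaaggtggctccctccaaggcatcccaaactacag
Clec5a exon 3: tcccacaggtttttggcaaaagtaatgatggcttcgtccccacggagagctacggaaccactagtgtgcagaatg
Clec4e exon 3: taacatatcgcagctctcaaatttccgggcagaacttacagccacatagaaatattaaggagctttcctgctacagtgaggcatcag
In Clec7a, where this exon is known to separate the long from the short form of Dectin-1 by a stalk segment, isoforms with the exon made up 81.5% and 74.4% of coding-isoform TPM in LPS+IFNb libraries, 71.9% and 76.7% in LPS libraries, 80.6% and 75.1% in IFNb libraries, and 76.2% and 73.0% in saline libraries. These shares overlapped between the groups. The total of Clec7a was higher in both saline libraries than in all others, but its calls against saline ended under median-ratio scaling. In Clec5a the share with the exon was 50.2% and 82.0% in LPS+IFNb libraries, 68.4% and 79.1% in LPS libraries, 52.6% and 45.4% in IFNb libraries, and 46.0% and 43.1% in saline libraries. Both LPS libraries stood above both saline libraries and both IFNb libraries, and the LPS+IFNb libraries were far apart. In TPM, the Clec5a isoform with the exon was at 36.4 and 26.6 in LPS libraries, against 5.96 and 4.31 in saline libraries, and the isoforms without it were at 16.8 and 7.05 TPM against 6.99 and 5.69 TPM. In Clec4e the share was 75.5% and 57.8% in LPS+IFNb libraries, 63.5% and 60.3% in LPS libraries, 88.7% and 69.4% in IFNb libraries, and 68.4% and 61.4% in saline libraries, so LPS+IFNb, LPS and saline libraries overlapped. The isoform shares are kallisto's division of reads between overlapping transcripts and were not tested.

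**Figure D3:**
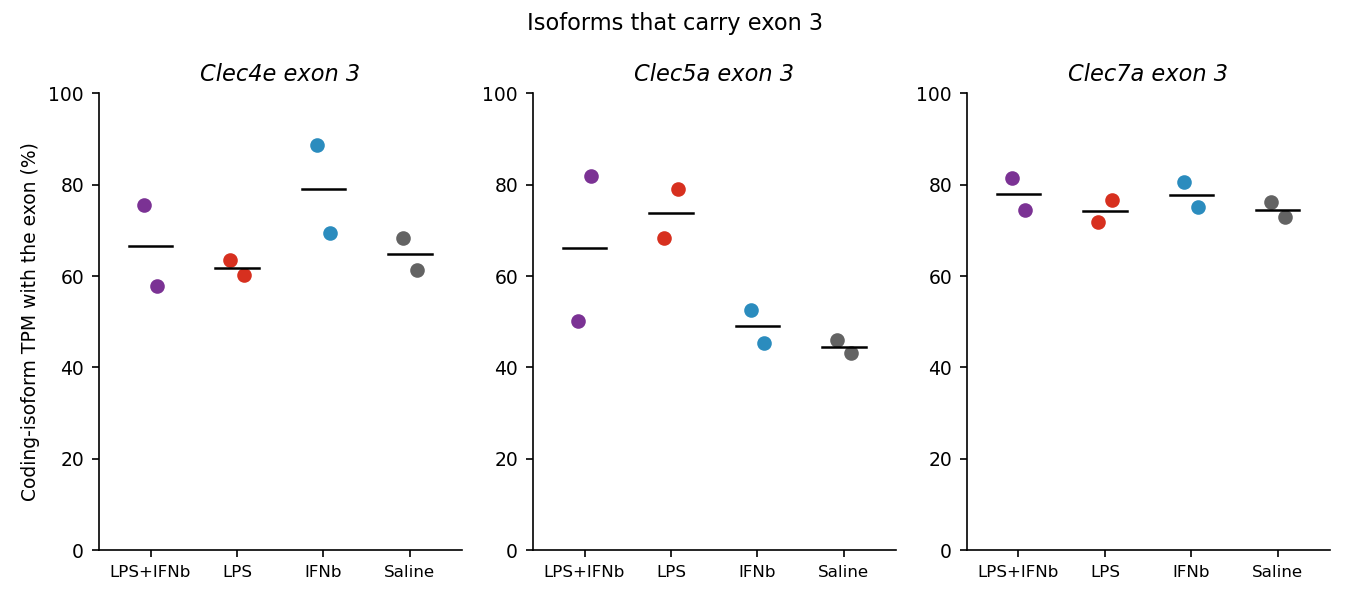
Percent of coding-isoform TPM from isoforms that hold exon 3, as a point for each library with a line for the group mean, for Clec4e, Clec5a and Clec7a. Clec7a stays between 71.9% and 81.5% in all libraries, and Clec5a is higher in the LPS libraries than in the IFNb and saline libraries.

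Part of the TPM came from transcripts that are annotated as not coding. Retained-intron transcripts of Clec4e took 51.9% ± 0.052 of its TPM in LPS+IFNb, 51.9% ± 1.19 in LPS, 54.4% ± 6.60 in IFNb and 52.2% ± 19.8 in saline libraries (SD, n = 2 each). The values in the 2 IFNb libraries were 59.1% and 49.7%, and those in the 2 saline libraries were 66.2% and 38.2%, so at the low levels of the gene the share was poorly determined. With only protein-coding transcripts, Clec4e in LPS against saline differed by 4.96 (limma, adjusted p = 5.9e-05). For LPS+IFNb against LPS it differed by -0.9994, with an adjusted p of 0.0599. In that setting 3 members were still lower in LPS+IFNb against LPS, so a member not called with all transcripts passed there. A noncoding transcript took 44.3% to 53.4% of Clec5a TPM, and without it the difference of LPS+IFNb from LPS was -2.29 (adjusted p = 0.00114). Retained-intron transcripts of Clec12a took 4.39% and 1.91% of its TPM in LPS+IFNb libraries, 12.98% and 7.88% in LPS libraries, 6.48% and 6.23% in IFNb libraries, and 9.10% and 12.9% in saline libraries. All 4 libraries that had received IFNb were below the other 4, which was not tested. Most Clec7a TPM belongs to a full-length transcript that the annotation classes as a polymorphic pseudogene.

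The receptors followed different patterns over the 8 libraries. The root-mean-square difference between centred log2(TPM + 1) profiles, where a smaller value means a more similar pattern, was 0.41 for Clec7a and Clec12a, the most alike pair, and 2.76 for Clec4e and Clec7a, the least alike. The search for similar genes covered tested protein-coding genes other than the members. It left out symbols of predicted genes, clones, pseudogenes and antigen receptor segments, and symbols shared by several genes. Within that search, the genes most like Clec4e were Ehd1 (0.26), Rnd3 (0.27) and Bcl2a1a (0.35). Ehd1 encodes a protein of endosome recycling and Rnd3 an atypical small GTPase, and Bcl2a1a is a survival gene that shares reads with close paralogs. Ehd1 was at 415 and 521 TPM in LPS+IFNb libraries, 712 and 732 TPM in LPS libraries, 15.7 and 15.0 TPM in IFNb libraries, and 13.8 and 27.3 TPM in saline libraries, an order close to that of Clec4e. Those most like Clec5a were Bub1b (0.28), a mitotic checkpoint kinase, Nop58 (0.37), a nucleolar protein, and Eef1e1 (0.37). Those most like Clec4d were Ap4b1 (0.19), Sptan1 (0.19) and Agpat4 (0.20), and those most like Clec4n were Ube2o (0.20), Stac2 (0.21) and Atf5 (0.21). Clec7a was closest to Rnase4 (0.09), Scaper (0.10) and Ccdc90b (0.11), and Clec12a to Pon3 (0.15), Alg6 (0.17) and Cstf2 (0.17).

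Of 12 adaptors and kinases that act directly below the receptors, 5 rose and 5 fell in LPS against saline, with a median of -0.20 against -0.38 over all tested genes. Of all tested genes 12.8% rose and 41.3% fell. After median-ratio scaling 5 were higher and 1 was lower, where 20% of tested genes were higher and 16.7% lower. The Src-family kinases Src (2.81, limma, adjusted p = 0.00178) and Fgr (0.93, adjusted p = 0.000742) rose. Fcer1g, the adaptor chain through which Clec4e and Clec4n signal, was at 1327 ± 57.2 TPM in LPS and 889 ± 71.5 TPM in saline libraries (SD, n = 2 each) and rose by a log2 of 0.58 (adjusted p = 0.00283). The exchange factor Vav1 (-0.89, adjusted p = 0.00132) and the kinase Btk (-0.78, adjusted p = 0.00318; -0.33 and not passed when scaled) fell. The adaptor Tyrobp, through which Clec5a signals, fell by 0.50 (adjusted p = 0.0207), which did not pass when scaled (-0.04). Of the 12 adaptors and kinases, LPS+IFNb against LPS had 4 higher and 3 lower, with a median of -0.23 against -0.22 over all tested genes. Of all tested genes 10.8% were higher and 24.1% lower. After scaling 4 of the 12 were higher and 2 lower, where 14.4% of tested genes were higher and 9.9% lower. Fyn (1.204, limma, adjusted p = 0.000983), Vav1 (0.81, adjusted p = 0.00361) and Lyn (0.64, adjusted p = 0.00123) were higher. Syk, the kinase the receptors share, was lower, at 130 ± 20.6 TPM in LPS+IFNb and 246 ± 22.6 TPM in LPS libraries (log2 difference -0.92, adjusted p = 0.00682), as were Fgr (-0.81, adjusted p = 0.00249) and Plcg2 (-0.64, adjusted p = 0.0123; not passed when scaled).

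Of 11 genes from PKC-delta and CARD9 onward, 6 rose and 3 fell in LPS against saline, with a median of 0.78 against -0.38 over all tested genes. Of all tested genes 12.8% rose and 41.3% fell. After scaling 7 of the 11 were higher and 2 lower, where 20% of tested genes were higher and 16.7% lower. Malt1, the protease of the CARD9 complex, was at 243 ± 10.1 TPM in LPS and 24.3 ± 0.0395 TPM in saline libraries and rose by 3.27 (limma, adjusted p = 6.38e-06). Its partner Bcl10 (0.89, adjusted p = 0.000397) and the kinase adaptor Tab2 (1.44, adjusted p = 4.97e-05) rose as well. Card9 itself fell by 1.26 (adjusted p = 0.00142), along with Tab1 (-1.65, adjusted p = 0.000371) and Ikbkg (-0.84, adjusted p = 0.0101; -0.39 and not passed when scaled). Of the 11, LPS+IFNb against LPS had 6 lower and none higher, with a median of -0.48 against -0.22 over all tested genes. Of all tested genes 24.1% were lower and 10.8% higher. After scaling 4 were lower and 1 was higher, where 9.9% of tested genes were lower and 14.4% higher. Card9 was at 5.32 ± 0.0337 TPM in LPS+IFNb and 14.4 ± 0.265 TPM in LPS libraries (log2 difference -1.28, adjusted p = 0.00254). Prkcd, which encodes PKC-delta (-0.88, adjusted p = 0.00353), and the kinase Map3k7 (-0.70, adjusted p = 0.00332) were also lower.

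Of 10 negative regulators of these pathways, 2 rose and 7 fell in LPS against saline, with a median of -1.13 against -0.38 over all tested genes. Of all tested genes 12.8% rose and 41.3% fell. After scaling 2 of the 10 were higher and 5 lower, where 20% of tested genes were higher and 16.7% lower. Socs1, an inhibitor of cytokine signalling, rose by 4.82 (limma, adjusted p = 4.12e-06), and the phosphatase gene Ptpn11 by 0.59 (adjusted p = 0.0137). The phosphatase gene Inpp5d (-2.29, adjusted p = 0.000278), Dok3 (-1.30, adjusted p = 0.000360) and Rubcn (-1.41, adjusted p = 0.000738) fell. After priming, against LPS, 3 were higher and 2 lower, with a median of 0.11 against -0.22 over all tested genes. Of all tested genes 10.8% were higher and 24.1% lower. After scaling 3 of the 10 were higher and none lower, where 14.4% of tested genes were higher and 9.9% lower. The 2 phosphatase genes that Clec12a signals through differed in direction. Ptpn6 was at 1193 ± 248 TPM in LPS+IFNb and 552 ± 30.6 TPM in LPS libraries (log2 difference 1.10, limma, adjusted p = 0.00991), while Ptpn11 was lower (-0.63, adjusted p = 0.0170), a call that was lost when scaled (-0.38). Socs1 (0.80, adjusted p = 0.0126) and Dok3 (0.58, adjusted p = 0.0140) were higher, and Dok1 was lower (-0.43, adjusted p = 0.0182; -0.18 and not passed when scaled).

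**Figure D4:**
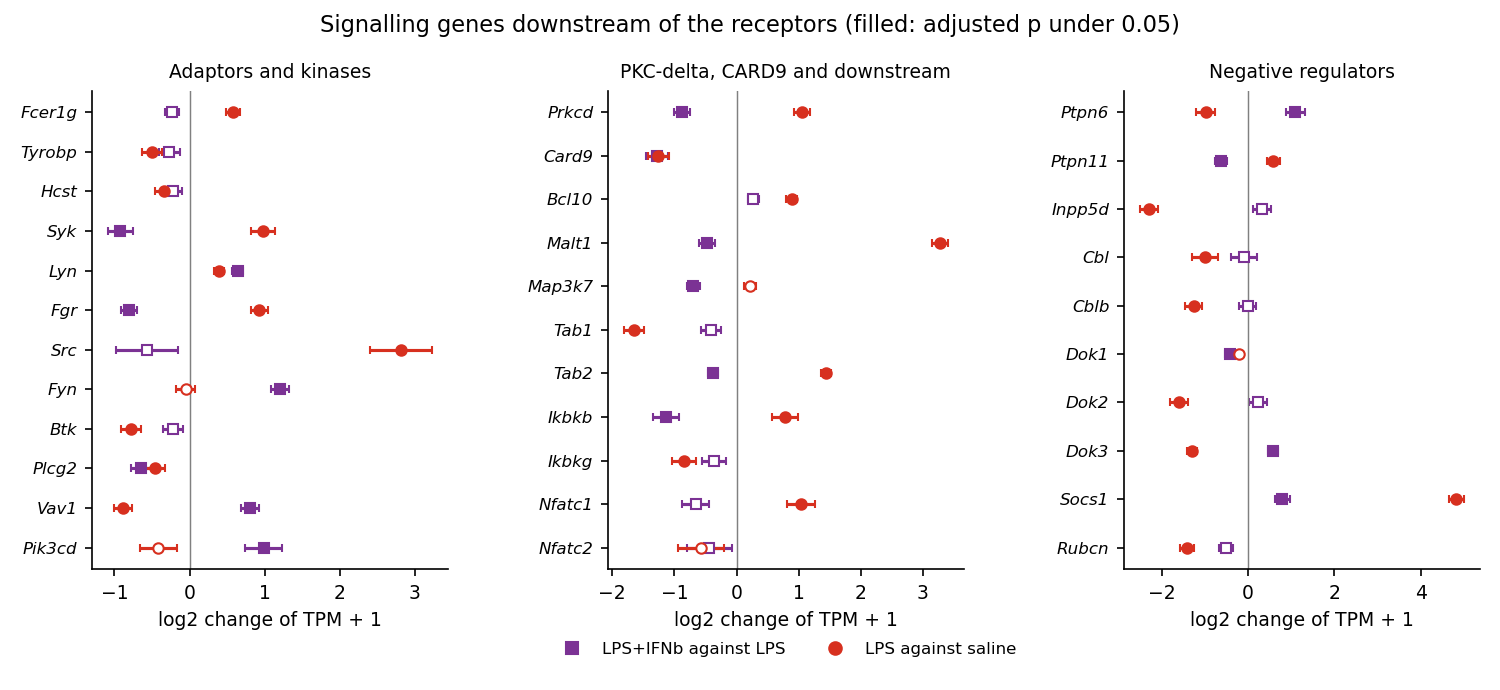
Log2 difference of TPM + 1 with SE for the signalling genes of 3 lists below the receptors, in LPS+IFNb against LPS (squares) and LPS against saline (circles), filled where the adjusted p was under 0.05. Malt1 and Socs1 have large rises with LPS, Card9 is lower in both comparisons, and Syk is higher with LPS and lower after priming.

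Of 13 receptors that act beside the Dectins or in phagocytosis, 12 were tested. In LPS against saline 2 rose and 6 fell, with a median of -0.27 against -0.38 over all tested genes. Of all tested genes 12.8% rose and 41.3% fell. After scaling 2 of the 12 were higher and none lower, where 20% of tested genes were higher and 16.7% lower. Tlr2, the Toll-like receptor that cooperates with Dectin-1, was at 510 ± 0.763 TPM in LPS and 19.6 ± 1.77 TPM in saline libraries and rose by 4.63 (limma, adjusted p = 1.1e-06). Trem1, an activating receptor that also uses DAP12, rose by 1.56 (adjusted p = 0.00117) but reached only 2.30 ± 0.119 TPM. Fcgr3 (-0.76, adjusted p = 0.00124), Trem2 (-0.70, adjusted p = 0.00162) and Lgals3 (-0.39, adjusted p = 0.00399) fell, all of which were lost when scaled, with Lgals3 turning to 0.07. Between LPS+IFNb and LPS 2 of the 12 were higher and 3 lower, where 10.8% of tested genes were higher and 24.1% lower. After scaling 2 were higher and 1 was lower, where 14.4% of tested genes were higher and 9.9% lower. The Fc receptor gene Fcgr1 was at 489 ± 2.56 TPM in LPS+IFNb and 49.1 ± 1.52 TPM in LPS libraries (log2 difference 3.29, adjusted p = 2.58e-05), and Fcgr3 was higher by 0.66 (adjusted p = 0.00411). Trem1 (-1.005, adjusted p = 0.0112) was lower, as were the scavenger receptor Cd36 (-0.66, adjusted p = 0.00262) and the integrin Itgb2 (-0.26, adjusted p = 0.0304), both lost when scaled, with Itgb2 at 0.00.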

How the data were processed

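Each of the 8 libraries was deposited as TPM per transcript, which the authors obtained with kallisto on mm10 per the submitters' processing notes. For the kallisto version, options and strand setting, nothing is stated in the sources used here. TPM keeps no record of read number, so depth is unknown and no counting error can be given. Groups and replicate numbers came from the sample labels, and no library was left out.

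Of 88198 transcripts, 86119 matched GENCODE M21 (GRCm38). The other 2079 took 1.01% to 1.95% of a library's TPM and were left out. TPM summed per gene was tested as log2(TPM + 1), a scale that understates the change of low genes. A gene was tested if 2 or more libraries held 1 TPM or more of it (13009 of 30284), which all 6 members met. A limma 3.58.1 model (R 4.3.3, intensity trend) with 1 mean per group was fitted to the 8 libraries, with 4 residual and 2.54 prior degrees of freedom. Tests were two-sided, with p-values adjusted by Benjamini-Hochberg across all tested genes. The model was tested on simulated data.

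Members were named whatever their values. For each of them the 3 genes with the most similar profile among the protein-coding genes searched were named. Of the other lists, up to 3 genes per direction were named, in order of adjusted p in LPS against saline and in LPS+IFNb against LPS. The members and lists were chosen with earlier results of these data known. A few genes are not reported here and were left out of the list counts. The NF-kB and ISRE letters searched were shortened after a first search had been seen, with the same member windows matching. Alternatives were 3 other scalings, a pseudocount of 0.1, other filters and thresholds, coding transcripts only, a fit to the groups compared, a replicate block and each library left out. Added to these after seeing the data was a crossed block, described below.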

Additional observations from a re-analysis of the deposited data

Results flagged for a closer look

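The interaction of IFNb and LPS for Clec5a was -1.94 ± 0.32 on the log2 scale (limma, adjusted p = 0.0168), which marks a difference between the LPS effect in primed and in unprimed libraries. LPS+IFNb against IFNb gave a log2 difference of -0.17, and LPS against saline gave 1.77. The LPS+IFNb libraries were collected 8 h after IFNb and the IFNb libraries 4 h after it, so priming and time after IFNb cannot be told apart.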

How the results depend on the processing

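Over all alternatives, 715 values of single receptors kept their direction and their side of the threshold, 76 lost the threshold, 8 passed it newly and 35 changed sign. This tally includes the crossed block described below, which was chosen after seeing the data and called more members in several comparisons. Counts of members called moved by over 1.5 times as follows. Against saline, median-ratio scaling gave 0 for IFNb and 1 for LPS+IFNb (4 each before scaling), and upper-quartile scaling gave 2 and 1. With no filter the counts against saline were 1 for IFNb and 2 for LPS+IFNb, that of LPS+IFNb against IFNb was 1 and that of the interaction 0. Fitted to only the groups compared, there were 2 for IFNb against saline and 1 for LPS+IFNb against IFNb. An adjusted p under 0.01 gave 1 for IFNb and 2 for LPS+IFNb against saline, 1 for LPS+IFNb against IFNb and 0 for the interaction. A minimum log2 change of 1 gave 2 for LPS, 1 for IFNb and 2 for LPS+IFNb against saline, and 1 for LPS+IFNb against IFNb. Leaving out 1 library gave 1 to 3 for IFNb and 2 to 4 for LPS+IFNb against saline, 1 to 2 for LPS+IFNb against IFNb, and 0 to 1 for the interaction.

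Counts of all genes called moved as follows. Median-ratio scaling gave 4150 for IFNb against saline (6717 before) and 3019 for LPS+IFNb against IFNb (5107 before). An adjusted p under 0.01 gave 4639 for LPS and 4263 for IFNb against saline, 2328 for LPS+IFNb against LPS, 2413 for LPS+IFNb against IFNb, 3144 for LPS against IFNb and 401 for the interaction. A minimum log2 change of 1 gave 3028 for LPS, 2577 for IFNb and 5270 for LPS+IFNb against saline, 1322 for LPS+IFNb against LPS, 1511 for LPS+IFNb against IFNb and 2361 for LPS against IFNb. Leaving out 1 library gave 2723 to 4975 for LPS+IFNb against LPS, 2491 to 5542 for LPS+IFNb against IFNb and 469 to 949 for the interaction.

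Same-numbered libraries did not deviate together in all groups (correlations of deviations -0.16 to 0.14). The correlation was 0.14 for saline with LPS and 0.13 for IFNb with LPS+IFNb, and -0.16 to 0.01 for the other pairs of groups. The labels do not pair libraries across groups, and whether any are paired was not tested. With the replicate block 728 genes passed the interaction (1036 without it), and 1 member differed between LPS+IFNb and IFNb. A crossed block, chosen after seeing the data, had the replicate numbers swapped in IFNb and LPS+IFNb. It gave 5 members for LPS+IFNb against LPS and 5 for LPS against IFNb (3 each without it). Against saline it gave 5 for IFNb and 6 for LPS+IFNb (4 each without it). Counts of all genes called rose too, to 7380 for LPS against saline (7032 without it) and to 1141 for the interaction (1036 without it).

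Values that changed sign had not passed the threshold, except Clec5a in LPS+IFNb against saline (0.0496 under median-ratio scaling). That scaling also gave 0.17 for Clec4n in LPS against saline, 0.38 for Clec4d and 0.0447 for Clec12a in LPS+IFNb against saline, 0.10 for Clec4n, 0.14 for Clec5a, 0.0885 for Clec7a and 0.16 for Clec12a in LPS+IFNb against IFNb, and -0.0675 for Clec4n in the interaction. Upper-quartile scaling gave 0.0052 for Clec4n, 0.0239 for Clec5a and 0.0405 for Clec12a in LPS+IFNb against IFNb. Rescaling to protein-coding nuclear genes, with Clec7a kept, gave -0.0074 for Clec12a in LPS against saline. Protein-coding transcripts alone gave -0.13 for Clec7a in LPS+IFNb against LPS, 0.0489 for Clec7a in LPS against IFNb and -0.25 for Clec4n in the interaction. For Clec7a that setting left out the transcript classed as a polymorphic pseudogene, which held 71.8% to 80.6% of its TPM. Leaving out 1 library, values on both sides of 0 were found as ranges: for LPS against saline, -0.61 to 0.11 for Clec4n, -0.27 to 0.37 for Clec12a; for LPS+IFNb against LPS, -0.24 to 0.32 for Clec7a; for LPS+IFNb against IFNb, -0.54 to 0.21 for Clec4n, -0.36 to 0.0197 for Clec5a, -0.47 to 0.14 for Clec12a; for the interaction, -0.44 to 0.0797 for Clec4d, -0.29 to 0.46 for Clec4n, -0.53 to 0.11 for Clec12a. The cause was not tested. Unknown depth limits what can be said of Clec4n, the member with the lowest TPM.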

Other observations

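Other C-type lectin-like receptors behaved in different ways. Of 26 listed, 16 were tested. In LPS against saline 6 were higher and 4 lower, with a median log2 difference of -0.31 against -0.38 over all tested genes. Of all tested genes 12.8% were higher and 41.3% lower. After median-ratio scaling 6 of the 16 were higher and 1 was lower, where 20% of tested genes were higher and 16.7% lower. In LPS+IFNb against LPS 3 were higher and 6 lower, with a median of -0.07 against -0.22. Of all tested genes 10.8% were higher and 24.1% lower. After scaling 3 of the 16 were higher and 1 was lower, where 14.4% of tested genes were higher and 9.9% lower.

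Olr1, the receptor for oxidised LDL, had 40.8 and 45.1 TPM in LPS+IFNb libraries, 256 and 213 TPM in LPS libraries, 5.85 and 3.11 TPM in IFNb libraries, and 7.60 and 7.81 TPM in saline libraries. It was higher with LPS against saline (4.75 ± 0.23, limma, adjusted p = 2.12e-05) and lower with LPS+IFNb than with LPS (-2.42 ± 0.23, adjusted p = 0.000828), and its interaction was -1.70 ± 0.33 (adjusted p = 0.0305). Cd69, a lectin-like activation marker, had 322 and 347 TPM in LPS+IFNb libraries, 96.9 and 71.1 TPM in LPS libraries, 589 and 565 TPM in IFNb libraries, and 1.76 and 1.45 TPM in saline libraries. IFNb alone thus gave its highest level, 7.79 ± 0.15 above saline on the log2 scale (limma, adjusted p = 3.96e-07). LPS+IFNb libraries stood 1.99 ± 0.15 above LPS libraries (adjusted p = 0.000361).

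Mrc1, the mannose receptor, was at 64.8 ± 4.24 TPM in LPS+IFNb and 33.2 ± 2.70 TPM in LPS libraries (SD, n = 2 each; log2 difference 0.95, limma, adjusted p = 0.00137). Its fall with LPS against saline (-0.42, adjusted p = 0.0164) turned to 0.03 when scaled. Clec10a, a galactose-binding receptor that also marks dendritic cells, was at 37.0 ± 5.99 TPM in LPS+IFNb and 19.5 ± 6.15 TPM in LPS libraries (0.91, adjusted p = 0.0223). Clec2d (0.99, adjusted p = 9.41e-05) was higher in LPS against saline. In the same comparison Clec2i (-2.29, adjusted p = 0.000392) was lower, as was Clec4a3 (-0.90, adjusted p = 0.00201), which did not pass when scaled. Cd302 (-0.80, adjusted p = 0.00329) and Clec4a2 (-0.82, adjusted p = 0.0139) were lower in LPS+IFNb than in LPS libraries, and neither passed when scaled.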
